A study of Arabidopsis thaliana with 18 samples.

Results

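The 8 Arabidopsis genes described here encode clade A protein phosphatases of type 2C (PP2Cs), the co-receptors of the plant hormone abscisic acid (ABA). They were taken by gene identifier from the Ser2P polymerase tables and from the intron tables, as 8 of the 25016 genes found in any table. Transcribing RNA polymerase II (Pol II) and splicing were measured in Arabidopsis thaliana seedlings, 14 days old, by plant native elongating transcript sequencing (pNET-seq), chromatin-bound RNA sequencing (CB-RNA-seq) and total RNA-seq. In the pNET-seq libraries, nascent RNA was recovered with the polymerase by an antibody against Pol II phosphorylated at serine 2 of its C-terminal repeat, and only the last base of each nascent RNA was counted. The herboxidiene and DMSO groups were Col-0 seedlings immersed in buffer with the splicing inhibitor herboxidiene or with its solvent alone, with vacuum applied briefly, and they were studied by pNET-seq and total RNA-seq. The xrn3 group carries a T-DNA mutation of XRN3, which encodes a nuclear 5' to 3' exonuclease of transcription termination, and it was compared with untreated Col-0 wild type by pNET-seq and CB-RNA-seq. The libraries of a condition, 3 in total RNA-seq and 2 in either other assay, were pooled before the tables were made. Each table therefore holds 1 value per condition, no spread between libraries can be given, and every interval below is a 95% interval for counting error only. The adjusted p-values come from two-sided Fisher's exact tests of the pooled reads with Benjamini-Hochberg adjustment over all introns or genes, and they compare those libraries, not the conditions.

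In the absence of ABA, clade A PP2Cs dephosphorylate SnRK2 protein kinases and keep them inactive. ABA bound by PYR/PYL receptors lets the receptors block the phosphatases, and the released SnRK2 kinases then phosphorylate ABF transcription factors and other targets. ABI1 and ABI2 are known from dominant mutants that are insensitive to ABA, HAB1 and HAB2 are their closest relatives in function, and PP2CA is a strong negative regulator in seeds and guard cells. HAI1, HAI2 and HAI3 are named for strong induction by ABA. HAB1 is also known for a splice variant that keeps an intron and encodes a protein that no longer holds back the kinases.

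The genes lie, in the TAIR10 coordinates of the deposited tables, at chr4:13219961-13222284 on the minus strand (ABI1, AT4G26080), chr5:23087235-23089627 on the plus strand (ABI2, AT5G57050), chr1:27390022-27393281 on the plus strand (HAB1, AT1G72770) and chr1:6034362-6037289 on the plus strand (HAB2, AT1G17550). PP2CA (AT3G11410) lies at chr3:3583883-3585790 on the minus strand, HAI1 (AT5G59220) at chr5:23894404-23896619 on the minus strand, HAI2 (AT1G07430) at chr1:2280835-2282828 on the minus strand and HAI3 (AT2G29380) at chr2:12608702-12610167 on the plus strand. Together they have 23 introns, all of which matched an annotated RefSeq transcript of the TAIR10.1 assembly. HAB1 intron 1 lies in the 5' untranslated region, and the other 22 introns interrupt the coding sequence. All 22 hold a stop codon in the frame of the exon before them, and 10 of the 23 introns are a multiple of 3 bases long. The introns had a median length of 93 bp, between 70 and 391 bp, against a median of 99 bp over all listed introns, and a median GC content of 31.7%, against 32.7%. The place of the introns in the coding sequence is much alike among the genes. In ABI1, ABI2, HAB1, HAB2, PP2CA and HAI1 the last 2 introns are 35 codons apart, after codons 280 and 315 of ABI1 and after codons 365 and 400 of both HAB1 and HAB2. HAI2 and HAI3 have 2 introns each, 104 and 106 codons apart, and no intron after these.

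The introns that carry most of the contrasts between members described below are shown from the TAIR10.1 assembly in RefSeq, on the strand of the gene, with the GT and AG ends of the intron in capitals. ABI1 intron 3 (chr4:13220590-13220681) and HAB2 intron 2 (chr1:6036210-6036304) were among those with the largest change under herboxidiene. HAB1 intron 2 (chr1:27391745-27391855) and HAB1 intron 3 (chr1:27392204-27392287) did not pass the test, although HAB1 intron 3 and HAB2 intron 2 follow the same codon number. HAI1 intron 2 (chr5:23895266-23895634) is the intron at which the reads of HAI1 broke off, and its first 120 of 369 bases are shown.
ABI1 intron 3: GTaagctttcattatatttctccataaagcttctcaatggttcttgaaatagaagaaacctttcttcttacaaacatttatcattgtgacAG
HAB2 intron 2: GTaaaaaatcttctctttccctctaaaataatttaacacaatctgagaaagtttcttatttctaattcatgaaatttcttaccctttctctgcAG
HAB1 intron 2: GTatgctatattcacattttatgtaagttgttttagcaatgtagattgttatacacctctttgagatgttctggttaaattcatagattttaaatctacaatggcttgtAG
HAB1 intron 3: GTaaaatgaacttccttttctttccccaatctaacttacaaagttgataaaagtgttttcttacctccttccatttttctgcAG
HAI1 intron 2, first part: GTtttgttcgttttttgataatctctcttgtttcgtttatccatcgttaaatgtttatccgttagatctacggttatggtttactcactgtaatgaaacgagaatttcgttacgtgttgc
Of the 23 member introns, 4 begin with GTAAG, 1 of them ABI1 intron 3, against 17% of the 121169 introns searched. HAB1 intron 3 is the only member with CTAAC or CTGAC on the sense strand within its last 60 bases, which 9.21% of all introns hold.

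Pol II over the gene body was highest at ABI1 and PP2CA in every condition, and by gene body reads the other members were lower by more than 5-fold in each. The level is given as gene body reads per kilobase per 1000000 gene body reads, counted over the 11355 nuclear genes listed in all 4 pNET-seq tables. A gene is listed there only if it was active and had a significant pause at its 3' end, and HAI3 is not listed in DMSO or Col-0, while the other 7 members are listed in all. ABI1 reached 1131 in herboxidiene, 863.1 in DMSO, 424.6 in the libraries labelled xrn3 and 471.0 in Col-0. PP2CA reached 643.8 in herboxidiene, 439.5 in DMSO, 499.5 in xrn3 and 458.7 in Col-0. Both thus stood at or above the 97.9th percentile of the listed genes in each condition. ABI2 lay at 18.9 in herboxidiene, 17.7 in DMSO, 28.2 in xrn3 and 19.6 in Col-0. HAB1 lay at 18.5 in herboxidiene, 38.8 in DMSO, 21.6 in xrn3 and 17.2 in Col-0, and HAB2 at 32.7, 21, 15.4 and 18.2 in the same order. The intervals of ABI2, HAB1 and HAB2 overlapped in Col-0, so that the order of these 3 genes could not be told there. HAI1 had 88.4 in herboxidiene, 84.3 in DMSO, 9.08 in xrn3 and 9.14 in Col-0. HAI2 had 56.1 in herboxidiene, 79 in DMSO, 7.29 in xrn3 and 9.38 in Col-0. HAI3 had the lowest level by gene body reads, 2.96 from 11 reads in herboxidiene and 4.07 from 76 reads in xrn3. By gene body reads, HAI1 and HAI2 were thus in xrn3 and Col-0 seedlings the lowest of the 7 members listed in all tables, and in both immersed groups they stood above ABI2, HAB1 and HAB2. The order of HAI2 and HAI3 does not hold by the deposited TPM, which was computed over the gene and a stretch past its end. By that measure HAI2 had 28.2 in xrn3 and 26 in Col-0, above ABI2 (22.5 in xrn3 and 15.5 in Col-0) and HAB2 (21.6 in xrn3 and 21.7 in Col-0). HAI3 had a TPM of 34.6 in xrn3, below PP2CA and ABI1 alone, and 13.7 in herboxidiene, above ABI2 with 11.8. HAI1 was lowest by TPM in xrn3 and Col-0, at 5.01 and 5.45. In DMSO the TPM of HAI2 was 70.9 and that of PP2CA 201.5, which is less than 5-fold apart.

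**Figure D1:**
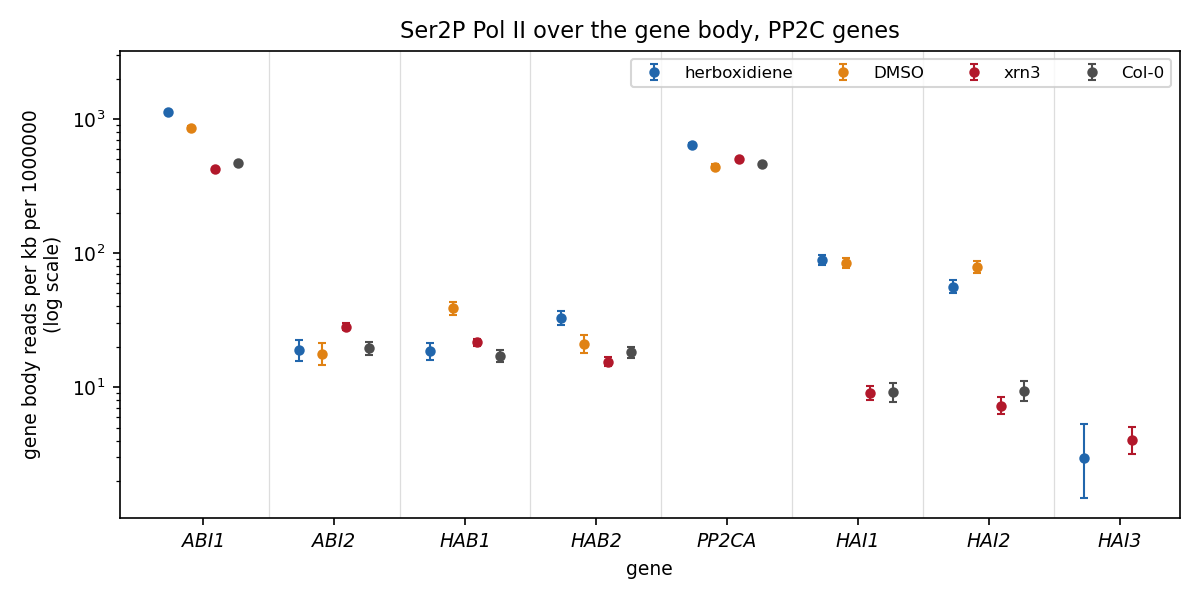
Gene body reads per kilobase per 1000000 gene body reads (log scale) of the 8 PP2C genes in pNET-seq of herboxidiene, DMSO, the libraries labelled xrn3 and Col-0; points are pooled values and bars 95% counting intervals. HAI1 and HAI2 lie between 56.1 and 88.4 in herboxidiene and DMSO and between 7.29 and 9.38 in xrn3 and Col-0, and no point is drawn where HAI3 is not listed.

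The tissue and the labels were checked once over all tables. The pNET-seq tables hold 3671597 to 25790239 gene body reads over 12663 to 19251 nuclear genes, and the RNA tables hold 15070870 to 29404905 exonic reads next to splice sites. The green tissue genes RBCS1A, LHCB2.1 and LHCA1 had reads in every condition and assay, while CAB1 appears only in pNET-seq of xrn3 and Col-0. The root gene PYK10 was abundant where listed but is not listed in pNET-seq of herboxidiene. The root genes SCR, SHR and WER had fewer reads. Of the flower genes, PI had 72 gene body reads in xrn3, 17 in Col-0 and 118 in DMSO, and 69 exonic reads in Col-0. AP3 had 7 gene body reads in xrn3. The seed storage genes SESA1 and CRA1 appear in no table. XRN3 itself had 9931 gene body reads in the libraries labelled xrn3 and 302 in Col-0, a 16.4-fold higher level, and 6925 against 8055 exonic reads in CB-RNA-seq, so the tables do not show a loss of XRN3 RNA and the libraries are called by their label throughout.

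The DMSO and Col-0 groups share the genotype, and their comparison shows how the members stood after immersion in buffer. HAI1 had 474 gene body reads in DMSO and 141 in Col-0, a 9.29-fold higher level (interval 7.68 to 11.3). HAI2 had 393 reads in DMSO and 128 in Col-0, and was 8.48-fold higher (6.93 to 10.4). HAB1, with 337 reads in DMSO and 409 in Col-0, was 2.28-fold higher. These 3 of the 7 members measured were higher by at least 2-fold and none was lower, where 10.3% of 14429 genes were higher and 27.0% lower by as much. ABI1 was 1.85-fold higher and HAB2 1.16-fold, while PP2CA and ABI2 lay at 0.965-fold and 0.913-fold of Col-0. The median log2 fold was 0.88 for the members and -0.41 for all genes. Scaling to the median gene in place of the total moved every log2 fold up by 0.29, with which ABI1 also passed 2-fold at a log2 fold of 1.17. By the deposited TPM, which counts a stretch past the gene end as well, the log2 fold of HAB1 was 0.40, that of HAI2 1.45 in place of 3.08 and that of HAI1 2.99. Of the 12 other ABA signalling genes measured here, the receptor gene PYL7 was 3.36-fold and the transcription factor gene ABI5 2.22-fold higher, and none was lower by 2-fold. No test was made, since the groups differ in handling and come from separate libraries, and these cannot be told apart.

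ACGTG is the core of the ABA-responsive element, which ABF factors bind, and the 250 bases before the deposited start of HAI1 and HAI2 are shown because these members differed most between DMSO and Col-0. Capitals mark ACGTG on either strand, including overlapping matches.
HAI1 (chr5:23896620-23896869, minus strand): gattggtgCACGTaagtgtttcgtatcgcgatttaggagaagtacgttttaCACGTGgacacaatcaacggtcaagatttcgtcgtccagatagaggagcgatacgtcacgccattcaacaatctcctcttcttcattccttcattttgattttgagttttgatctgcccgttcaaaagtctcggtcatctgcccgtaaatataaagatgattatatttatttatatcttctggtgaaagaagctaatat
HAI2 (chr1:2282829-2283078, minus strand): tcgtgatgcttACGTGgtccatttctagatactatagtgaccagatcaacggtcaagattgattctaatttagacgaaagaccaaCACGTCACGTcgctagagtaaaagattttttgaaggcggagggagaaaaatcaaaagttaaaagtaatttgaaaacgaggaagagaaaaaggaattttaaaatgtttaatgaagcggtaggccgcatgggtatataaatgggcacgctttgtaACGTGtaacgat
HAI1 held 3 matches and HAI2 held 4. HAB2 and HAB1 held 1 each, PP2CA and HAI3 held 2 each, and ABI1 and ABI2 held 0. In the 300 bases from 250 before to 50 after the start, 6 of the 8 members held at least 1 match, against 28.6% of 19931 genes listed in pNET-seq. A match is a description of the sequence, and no binding was measured here.

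Herboxidiene against DMSO asked what a block of splicing does to transcription and RNA of these genes. Pol II over the gene body changed by less than 2-fold at most members. HAB1 had 175 reads in herboxidiene and 337 in DMSO, a level 0.476-fold that of DMSO (0.394 to 0.573), and it was the only 1 of the 7 members past 2-fold, where 9.96% of 11590 genes were lower and 5.84% higher by as much. By the deposited TPM its log2 fold was -0.80, which does not pass 2-fold. HAB2 was 1.55-fold (1.27 to 1.9), PP2CA 1.46-fold (1.38 to 1.54) and ABI1 1.3-fold of DMSO (1.26 to 1.35). HAI1 lay at 1.04-fold (0.922 to 1.18), ABI2 at 1.06-fold (0.814 to 1.38) and HAI2 at 0.707-fold (0.607 to 0.823). In total RNA, none of the 6 members with counted introns passed 2-fold in exonic reads, where 1.53% of 9659 genes were higher and 3.31% lower. PP2CA had the highest fold, with 1785 exonic reads in herboxidiene and 1585 in DMSO (1.49-fold after scaling), and HAI1 the lowest, with 272 and 481 reads (0.747-fold).

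The RNA of all 6 measured PP2C genes held far more intron sequence after herboxidiene. Retention is given as intronic reads over exonic reads beside the splice sites of an intron, summed over the 5' splice site (5'SS) and the 3' splice site (3'SS), or over all introns of a gene. ABI1 had 3588 intronic and 4377 exonic reads in herboxidiene, against 229 and 4902 in DMSO, a ratio of 0.82 against 0.0467 and a 17.5-fold rise (log2 4.13, interval 3.93 to 4.33). PP2CA had 1035 intronic and 1785 exonic reads in herboxidiene, against 76 and 1585 in DMSO, a 12-fold rise of the ratio to 0.58, against 0.0479 in DMSO (Fisher's exact test, adjusted p = 3.8e-151). These genes with the most Pol II had the lowest ratios of the 6 in DMSO and also the largest fold changes in summed reads. By the median of the intron ratios, HAB2 had the lowest ratio in DMSO and the largest fold (0.579 in herboxidiene and 0.0258 in DMSO). These medians belong to intron 1 in herboxidiene and intron 3 in DMSO, so that fold is not the change of any 1 intron. ABI2 had a ratio of 0.76 in herboxidiene and 0.113 in DMSO, and HAI1 had 0.574 and 0.0852, a rise of 6.66-fold in each (Fisher's exact test, adjusted p = 4.11e-28 for ABI2 and 3.07e-27 for HAI1). HAB2 had 0.578 in herboxidiene and 0.0901 in DMSO, which was 6.38-fold higher (Fisher's exact test, adjusted p = 1.3e-55). HAB1 changed least, with 0.491 in herboxidiene and 0.197 in DMSO (2.48-fold, log2 1.31, interval 0.86 to 1.76; Fisher's exact test, adjusted p = 1.3e-08). Retention per gene thus rose at 6 of 6 members, where it rose at 85.5% of 9659 genes and fell at 1.19%, with a median log2 ratio of 2.74 for the members and 1.91 for all genes. HAI2 was counted in DMSO alone, with 15 intronic and 76 exonic reads, and HAI3 was counted in no RNA table.

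Per intron, 16 of the 19 counted PP2C introns rose and 0 fell, where 57.2% of 57034 introns rose and 3.04% fell, and the median log2 ratio was 2.92 for the members and 1.78 for all introns. ABI1 intron 3 had 1599 intronic and 1594 exonic reads in herboxidiene and 77 and 1572 in DMSO, so that intron and exon were read equally often after treatment (log2 4.35; Fisher's exact test, adjusted p = 5.69e-259). ABI1 intron 1 rose by a log2 of 4.34 and intron 2 by 3.38. All 3 introns of ABI1 were thus affected, with the longest of them the least. HAB2 intron 2 had the highest log2 ratio of the 19 with both splice sites summed, with 123 intronic and 230 exonic reads in herboxidiene and 4 and 308 in DMSO (log2 5.20, interval 3.82 to 6.58; Fisher's exact test, adjusted p = 3.25e-32). The interval overlaps those of ABI1 introns 1 and 3, and at the 5'SS alone HAB2 intron 3 (log2 4.76) and PP2CA intron 3 (4.46) stood above HAB2 intron 2 (4.35). HAB2 intron 3 rose by a log2 of 4.51, with 149 intronic and 241 exonic reads in herboxidiene against 9 and 349 in DMSO. HAB2 intron 1 rose least in that gene, with a ratio of 0.579 in herboxidiene and 0.3 in DMSO (log2 0.94; Fisher's exact test, adjusted p = 0.00041). Counted at its 3'SS alone, HAB2 intron 1 had a log2 ratio of 0.37 that did not pass (Fisher's exact test, adjusted p = 0.371). PP2CA introns 1, 2 and 3 rose by a log2 of 2.96, 3.73 and 4.11, and the introns of ABI2 by 2.59, 2.61 and 2.92.

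HAB1 held 2 of the 3 introns that did not pass. Its intron 1, in the 5' untranslated region, had a ratio of 0.615 in herboxidiene and 0.116 in DMSO (log2 2.37; Fisher's exact test, adjusted p = 1.4e-07), and intron 4 had 0.746 and 0.183 (log2 2.01; Fisher's exact test, adjusted p = 2.71e-06). HAB1 intron 3, between them, had 22 intronic and 74 exonic reads in herboxidiene and 22 and 101 in DMSO (log2 0.45, interval -0.50 to 1.39; Fisher's exact test, adjusted p = 0.489). HAB1 intron 2 had 17 intronic and 62 exonic reads in herboxidiene and 19 and 38 in DMSO (log2 -0.86, interval -1.95 to 0.24; Fisher's exact test, adjusted p = 0.231). These 2 introns already had ratios of 0.5 and 0.218 in DMSO, the first and the third highest among the 19 introns counted in both conditions. HAB2 intron 2, which follows the same codon number as HAB1 intron 3, had a ratio of 0.013 in DMSO. The interval of its log2 ratio, given above, does not overlap that of HAB1 intron 3, and the difference between the 2 introns was not tested. The third intron that did not pass was HAI1 intron 3 (0.207 in herboxidiene and 0.0763 in DMSO, log2 1.46, interval -0.09 to 3.01; Fisher's exact test, adjusted p = 0.14).

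**Figure D2:**
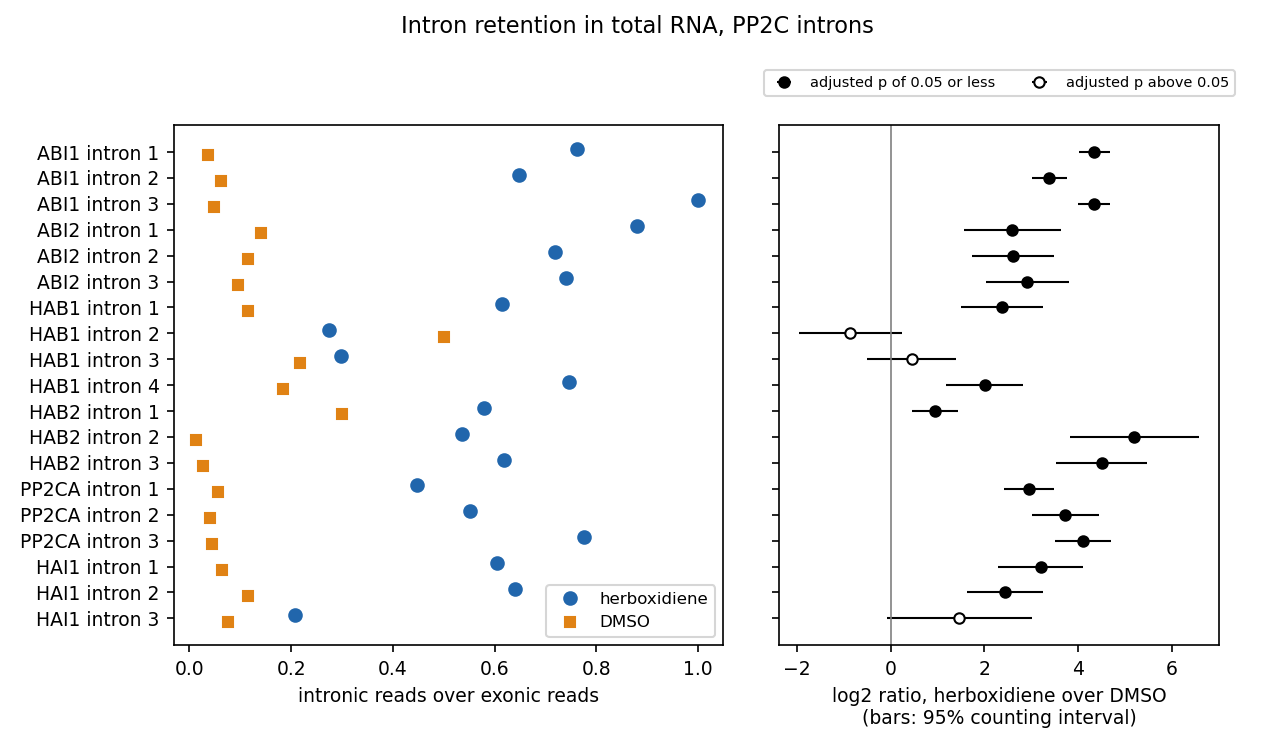
Ratio of intronic to exonic reads in total RNA-seq for the 19 counted PP2C introns (left, herboxidiene circles and DMSO squares, pooled values) and log2 ratio of herboxidiene over DMSO with 95% counting interval (right, filled where the adjusted p is 0.05 or less). Herboxidiene lies to the right of DMSO at 18 introns, and the open points are HAB1 introns 2 and 3 and HAI1 intron 3.

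In HAI1 the reads of the herboxidiene libraries broke off within intron 2. Along its introns 1 to 3, with the 5'SS before the 3'SS of each, the exonic reads were 79, 78, 74, 12, 16 and 13 in herboxidiene, against 97, 93, 90, 83, 56 and 62 in DMSO. The intronic reads in the same order were 43, 52, 53, 2, 5 and 1 in herboxidiene, against 11, 1, 13, 7, 3 and 6 in DMSO. Retained reads were thus plentiful up to the start of intron 2 and scarce from its end onward. Exonic reads after intron 2 made up 15.1% of the exonic reads next to splice sites in herboxidiene, against 41.8% in DMSO. At intron 2, the ratio of exonic reads at the 3'SS to those at the 5'SS was 0.162 in herboxidiene and 0.922 in DMSO (log2 -2.46, interval -3.42 to -1.49; Fisher's exact test, adjusted p = 1.83e-05). Such a fall was found at 0.600% of 57034 introns and at no other PP2C intron, while HAB2 intron 3 rose, as 0.358% of introns did (1.74 in herboxidiene and 0.939 in DMSO; Fisher's exact test, adjusted p = 0.0439). This comparison was added after the values of HAI1 had been seen. HAI1 intron 2 passed the retention test with both splice sites (log2 2.44), but at the 3'SS alone its log2 ratio of 1.15 did not (Fisher's exact test, adjusted p = 0.493). The sequence AATAAA, the canonical poly(A) signal, does not occur on the sense strand of HAI1 intron 2, and 29.2% of the 14327 introns of at least 300 bases hold it. Most introns of that length thus lack it, so its absence says nothing on the cause of the break, which was not tested.

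**Figure D3:**
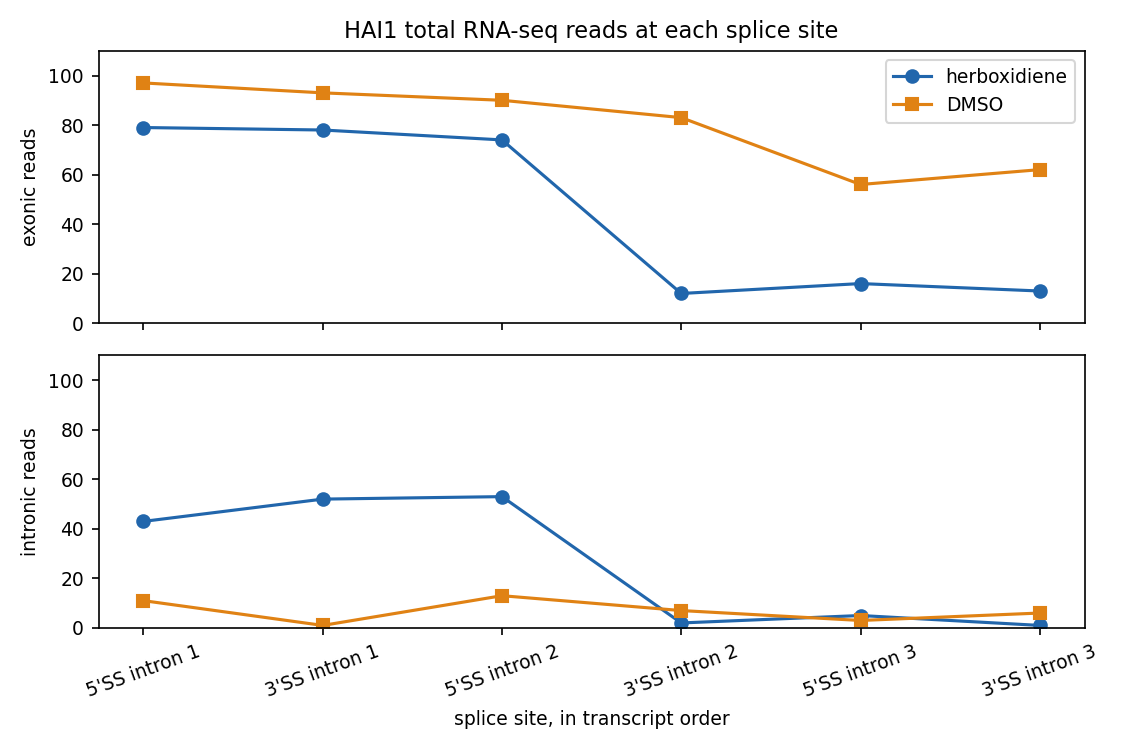
Pooled total RNA-seq reads of HAI1 at the 5'SS and 3'SS of introns 1 to 3 in transcript order, exonic reads above and intronic reads below, for herboxidiene (circles) and DMSO (squares). In herboxidiene exonic reads lie at 74 to 79 up to the 5'SS of intron 2 and at 12 to 16 from its 3'SS onward, and in DMSO at 83 to 97 before and 56 and 62 at intron 3.

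The 3' pausing index (3'PI) is the read density of the 50-bp peak window near the polyadenylation site over that of the gene body. It was higher at HAB1 and HAB2 than at the other members in every condition. Among all listed Col-0 genes HAB1 stood at the 90.7th percentile, but HAB2 only at the 60.3rd. HAB1 had a 3'PI of 22.7 in herboxidiene, 25.8 in DMSO, 43.9 in xrn3 and 61.5 in Col-0. HAB2 had 19.9 in herboxidiene, 14.6 in DMSO, 30.1 in xrn3 and 22.2 in Col-0. Among Col-0 genes with the same number of exons, HAB1 stood at the 93rd and HAB2 at the 67.4th percentile. ABI1 had 1.5 in herboxidiene, 1.54 in DMSO, 4.28 in xrn3 and 3.35 in Col-0, and PP2CA had 2.43, 2.6, 3.99 and 3.39 in the same order. Both lay near the bottom of the 1749 listed Col-0 genes with 4 exons, at the 12.5th and 12.8th percentile, where the median 3'PI was 14.2. ABI2 had 4.98 in herboxidiene, 4.61 in DMSO, 8.04 in xrn3 and 5.84 in Col-0. HAI1 had 1.77 in herboxidiene, 3.07 in DMSO, 5.36 in xrn3 and 6.52 in Col-0, and HAI2 had 3.69, 2.5, 4.62 and 2.65 in the same order. HAI3 had 6.36 in herboxidiene and 3.07 in xrn3, from peak windows of 3 and 10 reads. ABI1 and PP2CA, with the highest Pol II level, thus had low 3'PI values in each of the 4 conditions, and the 3'PI has the gene body density as its denominator.

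The position of the peak window did not move at ABI1, HAB1 and PP2CA. These 3 of the 7 members listed in all 4 tables had the same window in each, as had 6.91% of the 11355 shared genes, and the window of HAI1 moved by 5 bp. The window of ABI1 is centred 49.5 bp and that of HAB1 30.5 bp past the polyadenylation site, while that of PP2CA, before the site, is centred at -60.5 bp. The first pair of windows lies outside the genes and is shown from TAIR10.1, ABI1 at chr4:13219887-13219936 on the minus strand and HAB1 at chr1:27393287-27393336 on the plus strand.
ABI1 window: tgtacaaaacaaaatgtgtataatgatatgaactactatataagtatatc
HAB1 window: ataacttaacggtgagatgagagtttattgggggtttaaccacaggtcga
No part is in capitals, as no motif was searched for in them. A and T make up 78% of the ABI1 window and 58% of the HAB1 window. At ABI2, with 12 to 182 reads in the window, its centre lay at 40.5 bp past the site in herboxidiene and at 205.5 bp in DMSO, so its 3'PI compares different places. HAB2 and HAI2 each had their window in 1 place in herboxidiene and DMSO, within 10 bp, and in another in xrn3 and Col-0.

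**Figure D4:**
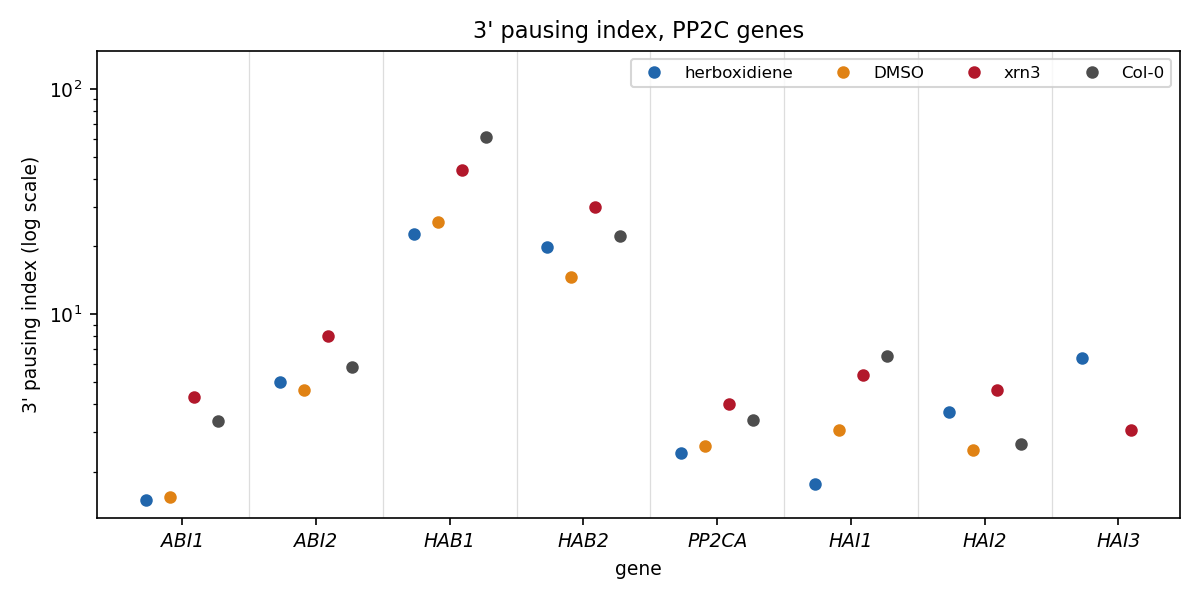
The 3'PI (log scale) of the 8 PP2C genes in pNET-seq of herboxidiene, DMSO, the libraries labelled xrn3 and Col-0, as pooled values without error bars. HAB1 and HAB2 lie between 14.6 and 61.5 in all 4 conditions, and the other members between 1.5 and 8.04.

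Herboxidiene changed the 3'PI of 0 of the 7 members, where 16.6% of 11590 genes fell and 1.31% rose. The median log2 ratio was -0.04 for the members and -0.37 for all genes. HAI1 alone had an unadjusted p under 0.05 (Fisher's exact test, p = 0.0381), with 25 peak window and 540 gene body reads in herboxidiene against 38 and 474 in DMSO (log2 -0.78, interval -1.53 to -0.04; adjusted p = 0.15). ABI1, with a 17.5-fold rise of retention, had a log2 ratio of -0.04 in 3'PI (interval -0.31 to 0.23; Fisher's exact test, adjusted p = 0.973). PP2CA had -0.10 (interval -0.40 to 0.19) and HAB1 -0.18 (-0.68 to 0.31). The intervals of ABI1, HAB2 (-0.13 to 1.02) and HAI2 (-0.19 to 1.3) lie above the median of all genes, while those of PP2CA, HAB1, HAI1 and ABI2 (-1.03 to 1.24) span it. Most members already had a low 3'PI in DMSO, where the median of the listed genes was 10.6. ABI1 had 1.54, HAI2 2.5, PP2CA 2.6, HAI1 3.07 and ABI2 4.61, while HAB2 and HAB1 had 14.6 and 25.8. HAB2 and HAB1 did not pass either. Only genes with a significant pause in both conditions could be compared, and whether a low 3'PI in DMSO limits a fall was not tested.

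In the libraries labelled xrn3, 3 of 7 members differed from Col-0 in 3'PI, where 11.3% of 17714 genes were higher and 3.66% lower. ABI1 had 1455 peak window and 13776 gene body reads in xrn3 and 635 and 7677 in Col-0, and rose by a log2 of 0.35 (interval 0.21 to 0.49; Fisher's exact test, adjusted p = 3.15e-05). PP2CA, with 1598 and 12875 reads in xrn3 and 627 and 5940 in Col-0, rose by a log2 of 0.23 (0.09 to 0.37; Fisher's exact test, adjusted p = 0.0118). HAB1, with 762 and 1027 reads in xrn3 and 425 and 409 in Col-0, went the other way (log2 -0.49, interval -0.72 to -0.25; Fisher's exact test, adjusted p = 0.00132). ABI1 and PP2CA thus rose and HAB1 fell, and none of the 3 changed by as much as 1.5-fold. Over all members the direction did not follow the 3'PI level. HAI1, with a 3'PI of 6.52 in Col-0, had a log2 ratio of -0.29 that did not pass (Fisher's exact test, adjusted p = 0.728). HAB2 missed the threshold (log2 0.43, interval 0.11 to 0.75; Fisher's exact test, adjusted p = 0.0553). Gene body levels differed by less than 2-fold at all 7 members, where 4.05% of genes were higher and 0.999% lower by as much. ABI2 had the highest fold (1.43, interval 1.26 to 1.63) and HAI2 the lowest (0.773, interval 0.616 to 0.973).

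Chromatin-bound RNA held less intron sequence in the libraries labelled xrn3 at 3 of the 6 measured PP2C genes, which is near the share over all genes. ABI2 had 185 intronic and 617 exonic reads in xrn3 and 267 and 528 in Col-0, a ratio of 0.3 against 0.506 (log2 -0.75, interval -1.07 to -0.43; Fisher's exact test, adjusted p = 1.73e-05). PP2CA had ratios of 0.412 in xrn3 and 0.578 in Col-0 (log2 -0.49; Fisher's exact test, adjusted p = 4.46e-07), and ABI1 had 0.349 and 0.445 (log2 -0.35; Fisher's exact test, adjusted p = 1.03e-07). These 3 of 6 measured members fell and 0 rose, where 50.3% of 15089 genes fell and 1.28% rose, with a median log2 ratio of -0.42 for the members and -0.37 for all genes. HAB1 (0.281 in xrn3 and 0.344 in Col-0), HAB2 (0.321 and 0.314) and HAI1 (0.236 and 0.433) did not pass (Fisher's exact test, adjusted p = 0.0575, 0.921 and 0.124). With a 1.5-fold change asked for as well, ABI2 alone was called. By the median of its intron ratios ABI1 did not fall (0.388 in xrn3 and 0.384 in Col-0). These medians belong to different introns. The first is intron 3, which had 0.529 in Col-0, and the second is intron 1, which had 0.403 in xrn3. Intron 2 had 0.203 in xrn3 and 0.337 in Col-0. Exonic reads differed by less than 2-fold at all 6 members, where 1.33% of genes were higher and 1.01% lower by as much.

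Of the 19 PP2C introns in chromatin-bound RNA, 8 fell and 1 rose, where 19.8% of 94500 introns fell and 1.92% rose. ABI2 intron 1 had 8 intronic and 120 exonic reads in xrn3 and 40 and 90 in Col-0 (log2 -2.67, interval -3.80 to -1.53; Fisher's exact test, adjusted p = 1.22e-05). ABI2 intron 2 fell by a log2 of 1.14 and ABI1 introns 2 and 3 by 0.73 and 0.45, while ABI1 intron 1 had 0.403 in xrn3 and 0.384 in Col-0 and did not pass. All 3 PP2CA introns fell, by a log2 of 0.43 to 0.62. HAI1 intron 2 had 3 intronic and 46 exonic reads in xrn3 and 18 and 27 in Col-0 (log2 -3.16, interval -4.94 to -1.38; Fisher's exact test, adjusted p = 0.00151). HAI1 intron 1 had 10 intronic and 32 exonic reads in xrn3 and 0 and 24 in Col-0 (Fisher's exact test, adjusted p = 0.0479). Its ratio was 2.5-fold higher when 3 reads are set for the 0 of Col-0, but its log2 interval of -0.18 to 8.15 includes no change. Introns 1 and 2 of HAI1, the counted member with the fewest reads, were thus called in different directions, the rise on few reads. With the 5'SS alone 3 introns were called, ABI1 introns 2 and 3 and ABI2 intron 1, and with the 3'SS alone 4, ABI1 intron 3, ABI2 introns 1 and 2 and HAI1 intron 2. No PP2CA intron passed at 1 site alone. None of the 7 introns of HAB1 and HAB2 passed the test in either direction. Exonic reads along the introns were compared in the same way as for HAI1 above. At ABI1 intron 2 they were 525 at the 3'SS and 397 at the 5'SS in xrn3 and 452 and 230 in Col-0, a ratio of 1.32 against 1.97 (log2 -0.57; Fisher's exact test, adjusted p = 0.0367). It was the only 1 of the 19 PP2C introns called, where 0.150% of 94500 introns were lower and 0.331% higher.

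**Figure D5:**
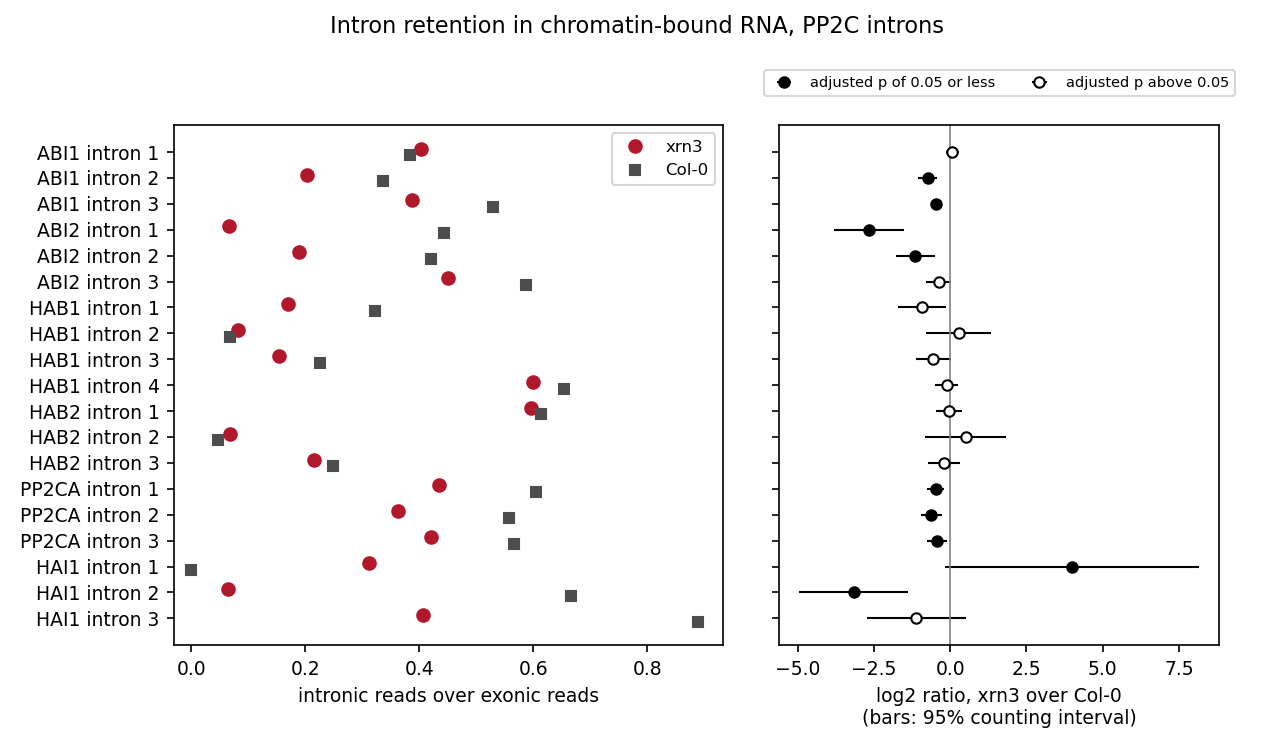
Ratio of intronic to exonic reads in chromatin-bound RNA for the 19 counted PP2C introns (left, libraries labelled xrn3 as circles and Col-0 as squares, pooled values) and log2 ratio of xrn3 over Col-0 with 95% counting interval (right, filled where the adjusted p is 0.05 or less). Filled points lie below 0 at 8 introns and above 0 at HAI1 intron 1, which has 0 intronic reads in Col-0, so that its plotted log2 ratio rests on 0.5 reads added to each count.

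The 25 other genes of the core ABA pathway, taken from a list by name, were set beside the PP2C genes in the same fits. Under herboxidiene, retention rose at 10 of the 10 measured, where it rose at 85.5% of 9659 genes. The median log2 ratio was 1.58, against 2.74 for the PP2C genes and 1.91 for all genes. The receptors PYL7, PYL8 and PYL9 rose by a log2 of 2.94 to 3.79, the kinases SnRK2.2, SnRK2.3 and OST1 by 1.00 to 1.96, and ABF1, ABF2, ABF3 and ABF4 by 1.11 to 1.64. The PP2C gene HAB1, at a log2 of 1.31, lay within the range of the kinases and transcription factors, and the lists were not tested against each other. The 3'PI fell in herboxidiene at 4 of 10, with 4.19 in herboxidiene and 16.4 in DMSO for SnRK2.2, 2.7 and 7.18 for SnRK2.3, 5.47 and 16 for ABF2, and 4.67 and 13.3 for ABI5 (Fisher's exact test, adjusted p = 6.04e-06, 2e-06, 0.0113 and 0.0483). The share of all genes that fell is the 16.6% given above, and the difference from the 0 of 7 PP2C genes was not tested. PYL6, PYL7, PYL8, ABF4, ABF1 and PYL9, which did not pass, had a 3'PI of 2.1 to 7.59 in DMSO. Of the PP2C genes, ABI1, HAI2, PP2CA, HAI1 and ABI2 had 1.54 to 4.61 in DMSO, and HAB2 and HAB1 had 14.6 and 25.8. The lists thus also differed in their 3'PI in DMSO. Gene body level was 2.05-fold higher at SnRK2.3 and 0.255-fold at PYL6, of 10 measured, where 5.84% of 11590 genes were higher and 9.96% lower by at least 2-fold. In chromatin-bound RNA of the libraries labelled xrn3, retention fell at 4 of 11, where it fell at 50.3% of 15089 genes and rose at 1.28%. OST1, SnRK2.2, PYL8 and SnRK2.3 fell by a log2 of 0.57, 0.47, 0.41 and 0.21. In pNET-seq of xrn3 against Col-0 the 3'PI rose at PYL4 and PYL6 and fell at ABF4, of 18 measured, with log2 ratios of 0.37, 0.86 and -0.35. Among 17714 genes 11.3% were higher and 3.66% lower.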

How the data were processed

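The samples were grouped by genotype and treatment. In pNET-seq, adapters had been removed with fastp, unique HISAT2 alignments to TAIR10 kept, duplicates collapsed by molecular identifier with gencore, and only the last base of read 1 retained by the authors. The deposited gene body and peak window counts are whole numbers of pooled reads, not normalised. The deposited TPM was computed by the authors for the gene and a stretch past its end. The deposited 3'PI is the authors' ratio of peak window to gene body density. The RNA-seq reads were trimmed (Trimmomatic 0.39) and aligned (HISAT2 2.2.0, unique reads by SAMtools) by the authors, who counted introns of expressed genes only. The deposited intron tables give counts of exonic and intronic reads at each splice site. Their SS ratio columns (another kind of deposited value, with text mixed in) and the authors' p-values and q-values of the peak test were not used. One further table (1 of the tables given, with introns of Col-0 and no assay named) was not used.

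Levels were scaled to the total over genes listed in both tables compared, or in all 4 for the levels given per condition. Ratios were compared by two-sided Fisher's exact tests over all nuclear introns or genes adjusted after Benjamini and Hochberg and called at 0.05, and 0.5 was added to each count for intervals and log2 ratios. A read close to both splice sites may be counted at both, which makes p-values too small. Both the test and the adjustment were tested on simulated data. Levels were called past 2-fold with no test. Computation used Python 3.11.15 (scipy 1.17.1, pandas 2.3.3, numpy 2.4.6) and figures matplotlib 3.10.9. Sequences come from the RefSeq copy of TAIR10.1, in which 98.8% of the introns searched, by the deposited TAIR10 coordinates, had GT and AG ends. Named are all 8 members, XRN3 and the other ABA genes past a threshold. The members, lists and tests were chosen with earlier results of these data known, and the comparison of exonic reads at the 3'SS and 5'SS, with its alternatives, after seeing the values. Alternatives were a threshold of 0.01, 1 splice site alone, at least 10 exonic or 20 gene body reads, windows within 25 bp, a 1.5-fold change, median intron ratios, scaling to the median and the deposited TPM.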

Additional observations from a re-analysis of the deposited data

How the results depend on the processing

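No paired analysis was possible because the deposited columns pool the libraries of a condition, and for the same reason no library could be left out in turn. Of the counts of PP2C genes and introns, 29 values under the alternatives stayed within 1.5 times the value reported and 8 did not. In the libraries labelled xrn3 against Col-0, the 9 introns called became 3 with the 5'SS alone and 4 with the 3'SS alone. The 3 genes with changed retention became 1 with a 1.5-fold change as well. By the median of intron ratios, which has no test, 5 were lower and ABI1 turned to higher (0.388 in xrn3 and 0.384 in Col-0). These ABI1 medians belong to different introns, intron 3 in xrn3 and intron 1 in Col-0. The 3 genes with a changed 3'PI became 0 with a 1.5-fold change as well, and the 0 genes past 2-fold in exonic reads became 1 with a fold of 1.5. In herboxidiene against DMSO, the 1 gene past 2-fold in gene body level became 0 by the deposited TPM and 2 with a fold of 1.5. Of the values of single introns and genes, 297 kept their outcome, which includes values that were not called and stayed so. A call was lost at 29 and gained at 1, and 0 changed direction while called. Depth limits HAI1, HAI2 and HAI3 most, with 110 exonic reads of HAI1 in the chromatin-bound RNA of the libraries labelled xrn3 and 60 in that of Col-0 and 11 gene body reads of HAI3 in herboxidiene.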

Other observations

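Reads at the 5'SS and the 3'SS were uneven in DMSO at some PP2C introns, of which those described here were chosen after their values were seen. HAI1 intron 1 had 11 intronic reads at the 5'SS and 1 at the 3'SS in DMSO, and HAB1 intron 1 had 3 and 14. HAB2 intron 1 had 57 intronic reads at the 5'SS and 90 at the 3'SS in herboxidiene, against 8 and 58 in DMSO, while its exonic reads were 128 and 126 in herboxidiene and 115 and 105 in DMSO. HAB1 intron 2, which interrupts the coding sequence after codon 249 where HAB2 intron 1 does so after codon 248, had 32 exonic reads at the 5'SS and 30 at the 3'SS in herboxidiene, against 28 and 10 in DMSO.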
